A study of Mus musculus with 21 samples.

Results

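Hbb-bs, Hbb-bt, Hba-a1, Hba-a2, Alas2 and Slc4a1 are genes of red blood cells, and their transcripts were followed here in RNA of sorted mouse B cells. These 6 genes were taken by GENCODE symbol from the 56953 genes counted, and they were selected on measured values, their lower levels in TET2-KO than in WT B-1a libraries and their high levels in the libraries labelled WT 1 and WT 2. Levels over the libraries, correlations between the members and the B-1a difference are therefore given as descriptions, with no test. The B-1b and B-2 comparisons between genotypes also hold libraries labelled WT 1 or WT 2, so their p-values are not independent of the selection. TET2 is an enzyme that oxidizes methylated cytosines in DNA, and the TET2-KO mice lack it in all tissues, through deletion of exons that encode its catalytic region. All mice were of the C57BL/6 strain, and the labels give neither age nor sex. Cells were flushed from the peritoneal cavity, and live B cells were sorted into the subsets B-1a, B-1b and B-2. By their labels the 21 libraries fell into 6 groups: B-1a cells with 4 libraries of each genotype, B-1b cells with 4 WT and 3 TET2-KO, and B-2 cells with 2 WT and 4 TET2-KO. Libraries carry numbers from 1 to 4 within a genotype, and no label says that libraries with one number came from one mouse. No treatment was given. P-values measure only the spread between these libraries.

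Red cells carry hemoglobin, a tetramer of alpha and beta globin chains with a heme group in each chain. Adult mice of this strain make the beta chains from Hbb-bs and Hbb-bt and the alpha chains from Hba-a1 and Hba-a2. Alas2 encodes the red cell form of the enzyme that starts heme synthesis, and Slc4a1 encodes band 3, the anion exchanger that anchors the red cell membrane to its skeleton. Mature mammalian red cells have no nucleus, and the RNA they hold was made before the nucleus was lost, so that globin RNA dominates in young red cells (reticulocytes). B cells are not known as a source of hemoglobin. The sort gated on B cell surface proteins, among them IgD, CD5, CD23 and B220, and a dead cell stain, with no antibody against a red cell antigen. Lysis of red cells was described for the bone marrow and spleen suspensions and not for the peritoneal cells. In bulk RNA, fewer cells of a type and less RNA per cell cannot be told apart.

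Libraries held 9667187 to 24152518 counted fragments, and 3 counts, the most that a count of 0 allows, were 0.124 to 0.310 CPM. CPM are counts scaled to library size, with TMM factors over all 21 libraries. Transcripts of B cells were present throughout, with 5079 to 14495 CPM of Cd79a, a chain of the B cell receptor complex. Tet2 was counted at 12.6 to 30.1 CPM in TET2-KO and 8.45 to 27.2 CPM in WT libraries, and counts over the whole gene do not check a deletion of a few exons. The markers of the sort went against the labels in the 5 libraries labelled WT 1 and WT 2. Among TET2-KO libraries, Fcer2a, which encodes CD23, was at 480 to 833 CPM in B-2 cells and at 4.61 to 42.6 CPM in B-1 cells. The library labelled B-1a WT 1 held 815 CPM of Fcer2a and the one labelled B-1b WT 2 held 598 CPM, whereas the library labelled B-2 WT 1 held 24.2 CPM. Cd5, which marks B-1a cells, was at 15.9 to 21.1 CPM in TET2-KO B-1a and at 2.95 to 5.09 CPM in TET2-KO B-1b libraries. Cd5 stood at 5.15 CPM in the library labelled B-1a WT 1, at 1.64 CPM in that labelled B-1a WT 2 and at 18.7 CPM in that labelled B-1b WT 1. These 5 libraries also had 18074 to 19255 detected genes, against 17816 to 35576 in the other 16. The labels were kept as deposited, and fold changes are given both ways, with these libraries in the fit and left out.

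**Figure D1:**
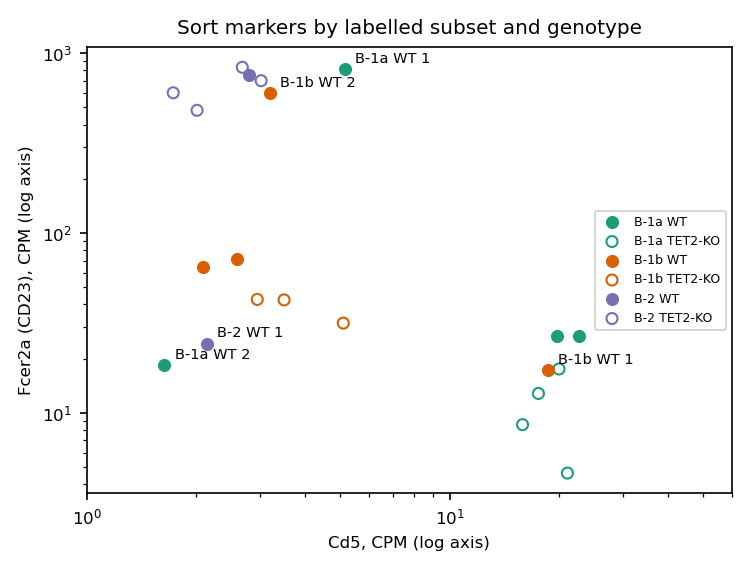
CPM of Cd5 (x, log axis) against CPM of Fcer2a (y, log axis), 1 point for each of the 21 libraries, filled for WT and open for TET2-KO, colored by labelled subset, with the libraries labelled WT 1 and WT 2 named. The library labelled B-1a WT 1 lies with the B-2 libraries at 815 CPM of Fcer2a, and the one labelled B-1b WT 1 lies with the B-1a libraries at 18.7 CPM of Cd5.

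The beta globin pair lies on chromosome 7 (GRCm39, minus strand, Hbb-bs at chr7:103475741-103477303 and Hbb-bt at chr7:103461731-103463203), and the alpha globin pair on chromosome 11 (plus strand, Hba-a1 at chr11:32233511-32234465 and Hba-a2 at chr11:32246489-32247298). Each of the 4 genes has 3 exons in its canonical GENCODE transcript. Alas2 lies on the X chromosome (plus strand, chrX:149330371-149353634, 11 exons) and Slc4a1 on chromosome 11 (minus strand, chr11:102239650-102257029, 20 exons). Coding sequences of the members of each globin pair differ at 1 base, of 441 coding bases in the beta pair (C417T, Hbb-bs first) and of 426 in the alpha pair (C381T, Hba-a1 first), counted from the A of the start codon. The 30 coding bases around each difference are shown because only fragments that reach such a base, or the ends of the transcripts outside the coding part, can be counted for one gene of a pair. Capitals mark the base that differs.
Hbb-bs: ggtggctggagtggcCgctgccctggctca
Hbb-bt: ggtggctggagtggcTgctgccctggctca
Hba-a1: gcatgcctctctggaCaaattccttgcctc
Hba-a2: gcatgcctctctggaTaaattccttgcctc
Of the 150-base windows of each transcript, the length of 1 read, 45.4% of those of Hbb-bs and 49.4% of those of Hbb-bt were absent from the other beta gene. For Hba-a1 and Hba-a2 these shares were 39.0% and 27.9%. Fragments that aligned to several places were not counted, so the counts of all 4 genes leave out reads, and the split between the members of a pair is uncertain.

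The bases before the start sites are shown because the 4 globin genes moved together over the libraries. RefSeq (GRCm38.p6) gave them for 5 of the 6 members, as the 120 bases before each start site, with capitals at each match, on either strand, of 4 motifs. These were the GATA motif AGATAA, the box CACCC, the box CCAAT and the TATA box, searched as TATAA.
Hbb-bs (chr7:103827929-103828048, minus strand): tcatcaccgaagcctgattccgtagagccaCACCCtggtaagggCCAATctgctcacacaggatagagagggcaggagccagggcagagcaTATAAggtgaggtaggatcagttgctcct
Hbb-bt (chr7:103813924-103814043, minus strand): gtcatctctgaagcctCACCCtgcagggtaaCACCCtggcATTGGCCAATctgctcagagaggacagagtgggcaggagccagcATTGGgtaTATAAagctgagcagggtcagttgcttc
Hba-a1 (chr11:32283552-32283671, plus strand): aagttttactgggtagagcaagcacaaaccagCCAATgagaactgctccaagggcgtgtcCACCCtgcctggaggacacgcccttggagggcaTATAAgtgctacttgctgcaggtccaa
Hba-a2 (chr11:32296372-32296491, plus strand): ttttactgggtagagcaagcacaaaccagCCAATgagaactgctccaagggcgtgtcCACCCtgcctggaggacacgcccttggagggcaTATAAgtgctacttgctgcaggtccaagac
Alas2 (chrX:150547297-150547416, plus strand): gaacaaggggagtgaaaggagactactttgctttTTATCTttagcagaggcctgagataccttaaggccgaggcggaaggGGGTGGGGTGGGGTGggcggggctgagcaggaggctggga
The latter 3 motifs occurred together before all 4 globin genes, and together in 0.688% of the 32851 RefSeq windows of this length. Singly, in the order just given, they occurred in 31.7%, 21.3% and 11.8% of the windows. AGATAA was found before Alas2, in reverse, 81 to 86 bases before the start, and in 4.36% of all windows. The windows of Hba-a1 and Hba-a2 shared an unbroken run of 117 bases, and those of Hbb-bs and Hbb-bt one of 14. No 2 of these motifs contain each other, and a match describes letters, not binding.

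Globin transcripts were found in every library, over a range of 16141-fold. The counts on the 4 globin genes summed to 65012, of which the libraries labelled B-1a WT 1 and B-1a WT 2 held 81.1% and the 5 libraries labelled WT 1 and WT 2 held 86.6%. In the library labelled B-1a WT 1 they took 0.143% of all counts (95% Wilson interval 0.142% to 0.145%), and in B-1b WT 3 they numbered 2. These intervals cover counting error only.

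Hbb-bs, the more abundant beta globin gene here, stood at 625 CPM in the library labelled B-1a WT 1, 360 CPM in that labelled WT 2, 4.62 CPM in WT 3 and 102 CPM in WT 4. In the TET2-KO B-1a libraries 1 to 4 its levels were 10.2, 1.05, 1.21 and 0.740 CPM. TET2-KO 1 lay above WT 3, so the groups overlapped. B-1b libraries gave 57.4, 25.5, 0 and 10.2 CPM of Hbb-bs for WT 1 to 4 and 7.20, 0 and 0 CPM for TET2-KO 1 to 3. B-2 libraries gave 1.01 and 22.3 CPM for WT 1 and WT 4, and 11.5, 10.6, 0 and 0.201 CPM for TET2-KO 1 to 4. Both genotypes of both subsets thus held a library with Hbb-bs at or below 1.01 CPM and one at or above 7.20 CPM. Group means with their SD were 273 ± 279 CPM in the libraries labelled WT B-1a (n = 4) and 3.30 ± 4.60 CPM in TET2-KO B-1a cells (n = 4). The SD exceeded the mean in both. The former mean includes the libraries labelled WT 1 and WT 2, the highest of the group, whose sort markers went against their labels.

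Hbb-bt, the other beta globin gene, followed at lower counts. Its levels in WT B-1a libraries 1 to 4 were 108, 65.1, 0.717 and 15.7 CPM, and in TET2-KO B-1a libraries they were 1.64, 0, 0 and 0.0569 CPM. Here too TET2-KO 1 exceeded WT 3. In the other subsets Hbb-bt ranged from 0 to 10.9 CPM, with the highest value in the library labelled B-1b WT 1.

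Hba-a1, an alpha globin gene, had the highest level of the 6 members. WT B-1a libraries 1 to 4 held 758, 423, 4.17 and 129 CPM, and TET2-KO B-1a libraries held 14.9, 0.371, 1.21 and 0.683 CPM. In B-1b cells Hba-a1 stood at 62.4, 28.7, 0.104 and 13.5 CPM for WT 1 to 4 and at 8.27, 0 and 0.340 CPM for TET2-KO 1 to 3. In both B-1 subsets WT 1 was the highest library and WT 3 the lowest WT library. In B-2 cells Hba-a1 was at 1.43 and 31.3 CPM in WT 1 and WT 4, and at 14.8, 12.2, 0 and 0.0672 CPM in TET2-KO 1 to 4. The 2 WT libraries of B-2 cells enclosed both higher TET2-KO libraries.

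Hba-a2, its partner, stood at 193, 106, 1.11 and 30.9 CPM in WT B-1a libraries 1 to 4 and at 2.90, 0.124, 0.173 and 0.569 CPM in TET2-KO B-1a libraries. In B-1b cells its range was 0 to 16.8 CPM and in B-2 cells 0 to 6.75 CPM. Levels of different genes need scaling by length before they are compared. Such scaling does not correct for fragments that aligned to several places and were not counted. In the globin genes 27.9% to 49.4% of the 150-base windows were absent from the partner gene, so the order of genes in TPM is uncertain. In TPM, which also scales by counted gene length, the library labelled B-1a WT 1 held 1624 of Hba-a1, 1416 of Hbb-bs, 502 of Hba-a2, 266 of Hbb-bt, 14.3 of Alas2 and 0.104 of Slc4a1.

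Alas2 had far fewer counts than the globin genes. WT B-1a libraries 1 to 4 held 406, 190, 8 and 61 counts of Alas2, or 19.7, 10.04, 0.521 and 3.23 CPM, and TET2-KO B-1a libraries held 6, 1, 13 and 0 counts, or 0.378, 0.0618, 0.748 and 0 CPM. TET2-KO 3 thus exceeded WT 3 and TET2-KO 1, an order that the globin genes did not show. In B-1b cells Alas2 reached 2.59 CPM, in the library labelled WT 1, and in B-2 cells 0.704 CPM, in TET2-KO 2. Slc4a1 was near the floor everywhere. It had counts in 5 libraries, 6 in B-1a WT 1, 2 in B-1a WT 4, 2 in B-1a TET2-KO 1, 1 in B-1b TET2-KO 1 and 7 in B-2 TET2-KO 4. The library with the most Slc4a1 counts held 7 globin counts, and the next, with 6 Slc4a1 counts, held the most globin. On counts this low, whether Slc4a1 followed the globin genes cannot be told.

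**Figure D2:**
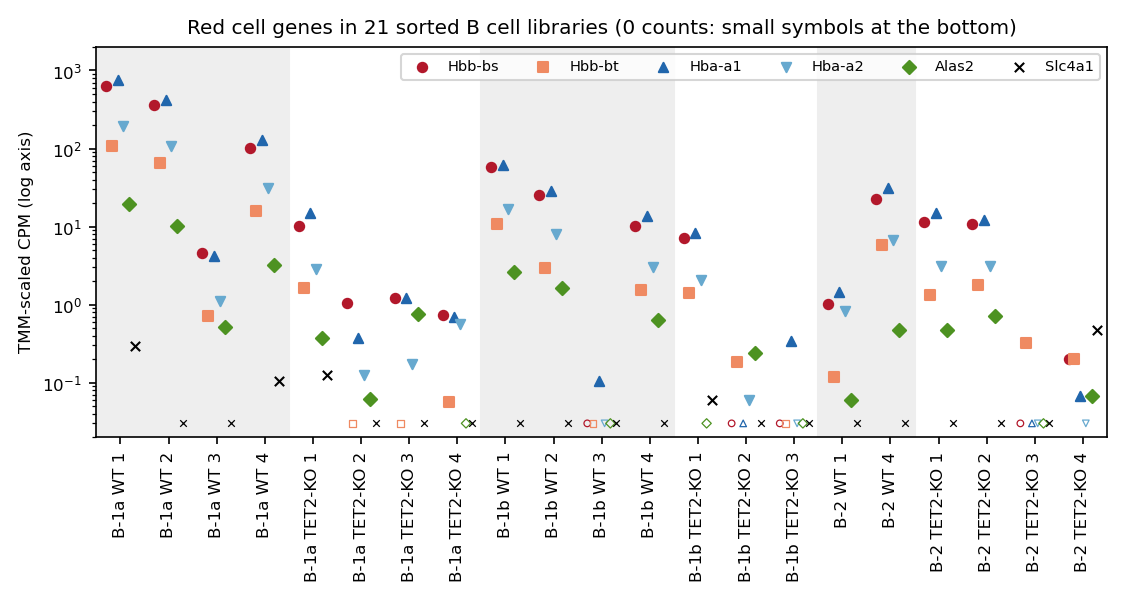
TMM-scaled CPM (y, log axis) of the 6 red cell genes in each of the 21 libraries (x, by labelled subset, genotype and number, WT groups shaded). Points are single libraries, and counts of 0 are drawn as small symbols at the bottom. The 4 globin genes are highest in the library labelled B-1a WT 1 and near or at 0 in B-1b WT 3, B-1b TET2-KO 2 and 3, and B-2 TET2-KO 3 and 4.

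Summed over the 4 genes, globin stood at 1684, 955, 10.6 and 277 CPM in WT B-1a libraries 1 to 4 and at 29.6, 1.54, 2.59 and 2.05 CPM in TET2-KO B-1a libraries. The sums in B-1b cells were 147, 65.3, 0.104 and 28.2 CPM in WT 1 to 4 and 19.0, 0.241 and 0.340 CPM in TET2-KO 1 to 3. B-2 cells held 3.39 and 66.1 CPM in WT 1 and WT 4 and 30.6, 27.8, 0.322 and 0.470 CPM in TET2-KO 1 to 4. Over 10 CPM were reached in 8 of 10 WT libraries and in 4 of 11 TET2-KO libraries, and without WT 1 and WT 2 in 4 of 5 WT libraries. The median over all subsets, which the subset labels of WT 1 and WT 2 cannot change, was 65.7 CPM in WT libraries (range 0.104 to 1684) and 2.05 CPM in TET2-KO libraries (range 0.241 to 30.6). The WT range enclosed the TET2-KO range. The WT 3 and WT 4 libraries alone had a median of 28.2 CPM and a range of 0.104 to 277 CPM.

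Between subsets, the library labelled B-1a held more globin than that labelled B-1b in 7 of 7 genotype and number pairs, and in 5 of 5 without WT 1 and WT 2. The ratio was 11.4 for WT 1, 14.6 for WT 2 and 9.84 for WT 4, and for WT 3 the counts were 163 and 2. Among TET2-KO libraries it was 1.56 for number 1, 6.40 for number 2 and 7.63 for number 3, the last 2 resting on 4 and 6 counts in B-1b cells. B-1a exceeded B-2 in 4 of 6 pairs, so the order of these subsets was not uniform. The medians of the summed level ran from WT B-1a (616 CPM) through WT B-1b (46.7 CPM), WT B-2 (34.8 CPM), TET2-KO B-2 (14.1 CPM) and TET2-KO B-1a (2.32 CPM) to TET2-KO B-1b (0.340 CPM). The ranges of neighboring groups in that order overlapped, so that neighbors did not differ beyond their spread. The order of the WT groups rested on the libraries labelled WT 1 and WT 2. Leaving these out gave medians of 144 CPM in WT B-1a (n = 2), 66.1 CPM in WT B-2 (n = 1) and 14.1 CPM in WT B-1b (n = 2), so that WT B-1b and WT B-2 changed places.

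The make-up of globin counts varied within a few percentage points in the libraries with the most of them. It leaves out fragments that aligned to several places, so the shares are of counts and not of transcripts. In the 4 libraries with at least 1000 beta globin counts, Hbb-bs took 84.1% to 86.6% of the counts on Hbb-bs and Hbb-bt. In the 4 with at least 1000 alpha globin counts, Hba-a1 took 78.7% to 80.7% of those on Hba-a1 and Hba-a2. Alpha globin took 53.7% to 57.7% of globin counts in the 5 libraries with at least 1000 of them. The TET2-KO libraries with the most globin counts gave like values, with 60% alpha globin in B-1a TET2-KO 1 (95% Wilson interval 55.5% to 64.3%), 54.5% in B-1b TET2-KO 1 (49.0% to 59.9%) and 58.3% in B-2 TET2-KO 1 (54.0% to 62.5%). These intervals hold the 56.5% of the library labelled B-1a WT 1. In B-2 WT 4 Hbb-bs took 79.6% of beta globin counts (75.4% to 83.2%) and in the library labelled B-1b WT 2 89.7% (86.8% to 92.0%), intervals on either side of the 85.3% of B-1a WT 1. The alpha globin intervals of B-1b WT 1, at 53.7% (51.7% to 55.8%), and of B-1a WT 2, at 55.5% (54.8% to 56.2%), also lay below 56.5%. Alas2 came to 10.5 to 25.3 counts per 1000 globin counts in the 5 libraries with at least 1000 globin counts. In B-1a TET2-KO 3 it came to 289 per 1000, from 13 Alas2 counts and 45 globin counts. Below 100 globin counts the shares spread from 0% to 100%, on few counts.

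**Figure D3:**
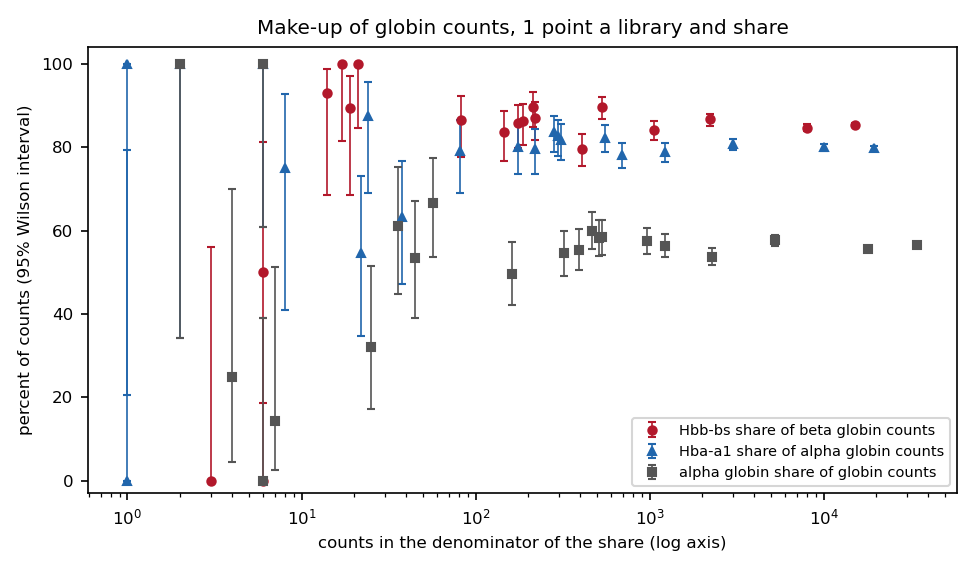
Share of Hbb-bs in beta globin counts, of Hba-a1 in alpha globin counts and of alpha globin in all globin counts (y, percent, with 95% Wilson intervals) against the counts in the denominator (x, log axis), 1 point for each library and share with counts. Above 1000 counts the 3 shares lie at 84.1% to 86.6%, 78.7% to 80.7% and 53.7% to 57.7%.

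The members other than Slc4a1 varied together over the libraries. Pearson's r between log2(CPM + 1) values of the 4 globin genes was 0.957 to 0.997 over 21 libraries (Spearman's rho 0.873 to 0.979), and 0.942 to 0.994 after the 2 libraries farthest from the median were left out. Over the 16 libraries other than WT 1 and WT 2 it was 0.935 to 0.994. Alas2 followed the globin genes at 0.892 to 0.948 over 21 libraries and at 0.776 to 0.820 over 16. Slc4a1 gave 0.160 to 0.262 with the other members over 21 libraries and -0.0295 to 0.0697 over 16. The points share library, depth and, in pairs, sequence, the correlations were part of how the members were chosen, and Slc4a1 had at most 7 counts in a library.

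**Figure D4:**
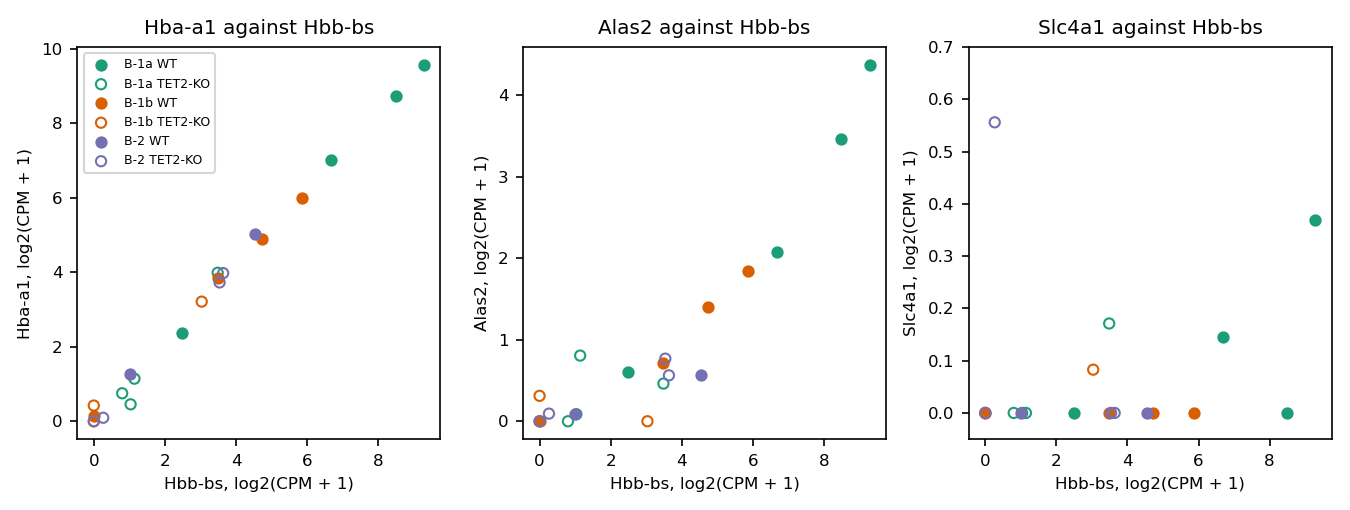
Levels of Hba-a1, Alas2 and Slc4a1 (y, log2(CPM + 1), own scale in each panel) against Hbb-bs (x, log2(CPM + 1)) in 21 libraries, filled for WT and open for TET2-KO and colored by labelled subset. Hba-a1 lies along 1 line with Hbb-bs (r = 0.997), Alas2 follows less closely, and Slc4a1 stays at or below 0.470 CPM.

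The question for each subset was how far TET2-KO and WT libraries differed. Log2 fold changes are from edgeR's quasi-likelihood fit, with Benjamini-Hochberg adjustment over all genes tested. Slc4a1 did not pass the filter on low counts in any comparison. In B-1a cells, where the difference chose the members, 0.0503% of all 13923 genes tested had an adjusted p under 0.05, and 1.49% of all genes with counts had every TET2-KO library below every WT library. Members with such a separation numbered 0. The log2 fold changes (± SE) were -6.34 ± 1.43 for Hbb-bs, -6.78 ± 1.56 for Hbb-bt, -6.23 ± 1.59 for Hba-a1, -6.43 ± 1.43 for Hba-a2 and -4.74 ± 1.19 for Alas2 (n = 4 and 4). With WT 1 and WT 2 left out of the fit they were -4.01 ± 1.25, -4.27 ± 1.604, -3.96 ± 1.48, -4.09 ± 1.33 and -2.62 ± 1.25 in the same order (n = 2 and 4). The differences were smaller and kept their sign. Leaving out TET2-KO 1 instead moved Hbb-bt to -10.76 and the other globin genes to -8.04 to -8.70. Of the WT libraries then left, WT 4 held 277 CPM of summed globin, above every TET2-KO library, and WT 3 held 10.6 CPM, below TET2-KO 1 at 29.6 CPM.

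In B-1b cells the same 5 members were lower in TET2-KO libraries on average, and none passed the test. The libraries labelled WT 1 and WT 2, whose levels were part of the selection, are in this comparison, so it gives no separate support. The log2 fold changes were -3.26 ± 1.79 for Hbb-bs, -2.81 ± 1.65 for Hbb-bt, -3.17 ± 1.63 for Hba-a1, -3.27 ± 1.70 for Hba-a2 and -3.78 ± 1.78 for Alas2, each with an adjusted p of 0.838 (edgeR, n = 4 and 3). The share passing among all 14368 genes tested was 0% in edgeR, where 787 had an unadjusted p under 0.05, and DESeq2 called 49. Members with every TET2-KO library below every WT library numbered 0, against 1.93% of all genes. Without WT 1 and WT 2 the globin log2 fold changes were -0.55 to -1.27, with SEs of 1.97 to 2.31, and WT 3 held 2 globin counts. Each of these values was smaller than its SE. Single libraries also moved the values. Without TET2-KO 1, the TET2-KO library with the most globin, the log2 fold changes of Hbb-bs, Hbb-bt, Hba-a1 and Hba-a2 were -11.66, -5.28, -7.13 and -7.54, and without WT 1 they were -2.31, -1.47, -2.29 and -2.37. Alas2 was at -7.43 without TET2-KO 2. The platelet list and the T cell list also summed lower in TET2-KO B-1b libraries, without overlap. Of the 10 platelet genes only 1, Pf4, passed the filter on low counts. The platelet list summed to 91.2 to 219 CPM in TET2-KO and 294 to 375 CPM in WT libraries, nearly all from Pf4, whose log2 fold change was -1.32 ± 0.32 (edgeR, adjusted p = 0.838). The T cell list summed to 27.7 to 44.2 CPM in TET2-KO and 44.4 to 97.9 CPM in WT libraries, so its ranges nearly met. The highest sums were those of the libraries labelled WT 1 (97.9 CPM) and WT 2 (66.1 CPM), whose sort markers went against their labels. The median log2 fold change of the T cell genes was -0.998 with all libraries and 0.096 without WT 1 and WT 2. The platelet list stood at 326 CPM in WT 3 and 294 CPM in WT 4, above every TET2-KO library. The part of these lists in the globin values was not tested.

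In B-2 cells 4 members passed the filter, and their log2 fold changes were -1.06 ± 1.65 for Hbb-bs, -1.69 ± 1.33 for Hbb-bt, -1.27 ± 1.68 for Hba-a1 and -1.26 ± 1.71 for Hba-a2. Adjusted p-values were 0.570 to 0.748 (edgeR, n = 2 and 4). The share passing among all 19786 genes was 0% in edgeR, where 1754 had an unadjusted p under 0.05, and DESeq2 called 147. Of all genes 3.76% had every TET2-KO library below every WT library, again with 0 members. The direction depended on 1 library. Without B-2 WT 4, which left WT 1 alone at 3.39 CPM of summed globin, the 4 values turned to 0.96 to 2.89, and without WT 1 they were -1.98 to -2.65. The sort markers of the library labelled B-2 WT 1 went against its label, with 24.2 CPM of Fcer2a beside 480 to 833 CPM in TET2-KO B-2 libraries. The values without WT 4 are therefore not a clear comparison of genotypes within B-2 cells.

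**Figure D5:**
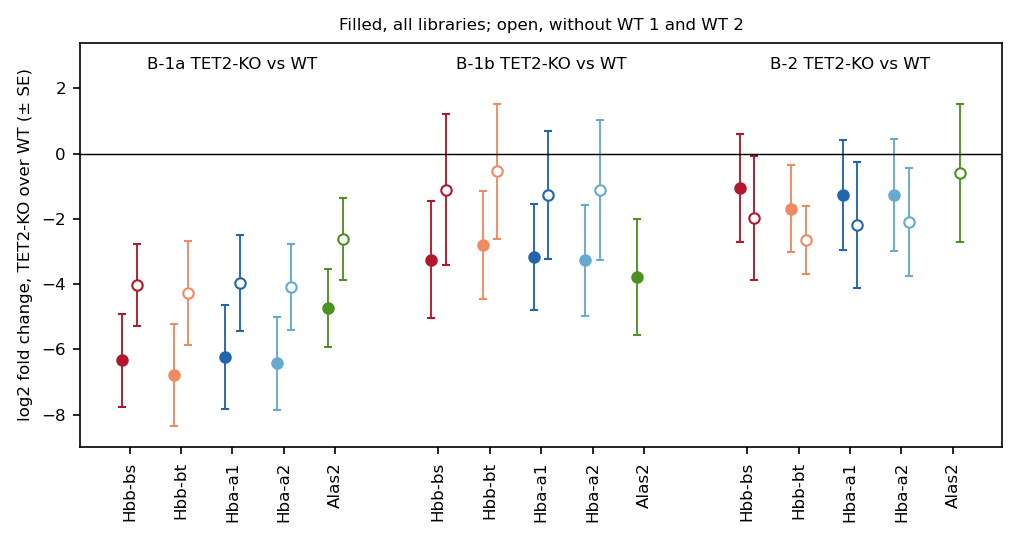
Log2 fold change of TET2-KO over WT (y, ± SE from edgeR) for each member that passed the filter on low counts, by subset, filled with all libraries and open without those labelled WT 1 and WT 2. In B-1a cells values run from -6.78 to -4.74 with all libraries and from -4.27 to -2.62 without these 2, and in B-1b and B-2 cells no member passed the test.

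Within the TET2-KO genotype, where labels and sort markers did not conflict, no globin gene passed the test between the sorted subsets. Libraries of 1 subset spread widely, with summed globin of 1.54 to 29.6 CPM in B-1a, 0.241 to 19.0 CPM in B-1b and 0.322 to 30.6 CPM in B-2 cells. Between B-1b and B-1a cells the log2 fold changes of the 4 globin genes were -0.58 to 0.32 (SEs 1.59 to 2.03, adjusted p 0.966 to 0.975). Between B-2 and B-1a cells they were 0.69 to 1.11 (SEs 1.48 to 1.85, adjusted p 0.695 to 0.859), and between B-2 and B-1b cells 0.79 to 1.28 (SEs 1.604 to 2.06, adjusted p 0.750 to 0.824). The share of all 18555 genes called was 0.205%, 5.82% and 2.15% in these comparisons, and 0 members were called in each. TET2-KO libraries numbered 1 held 19.0 to 30.6 CPM of summed globin in all 3 subsets, and those numbered 3 held 0.322 to 2.59 CPM. Those numbered 2 differed by subset, at 1.54 CPM in B-1a, 0.241 CPM in B-1b and 27.8 CPM in B-2 cells. Number 4 held 2.05 CPM in B-1a and 0.470 CPM in B-2 cells.

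Other genes of the red cell program were followed with a list of 65 genes apart from the members, 64 of which were in the counted files. In the B-1a comparison 34 of them passed the filter on low counts, with 10 higher, 24 lower and 0 called, and a median log2 fold change of -0.16, beside 0.02 over all genes. Of 36 tested in B-1b cells 11 were higher, 25 lower and 0 called, with a median of -0.14, beside -0.01 over all genes. In B-2 cells 19 of 43 were higher, 24 lower and 0 called, with a median of -0.07, beside 0.18. Many of these genes are used in B cells too, and 30 of the 64 had a median over 10 CPM. In TET2-KO cells 4 rose and 3 fell between B-1a and B-2 of 41 tested, where 5.82% of all 18555 genes tested were called. Car2, a carbonic anhydrase, was higher in B-2 cells by 5.24 ± 0.69 on the log2 scale, the transcription cofactor gene Lmo2 by 1.71 ± 0.21 and the membrane skeleton gene Epb41 by 1.19 ± 0.19, and Tent5c, a poly(A) polymerase gene, fell by 2.89 ± 0.32 (edgeR, largest adjusted p of these 0.00108, for Epb41). Between B-1b and B-2 cells 2 rose and 1 fell of 41 tested, where 2.15% of all genes were called. Car2 changed by 3.41 ± 0.69, Epb41 by 1.03 ± 0.21 and Tent5c by -2.10 ± 0.33. The globin genes, as given above, did not pass in these comparisons.

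Other genes known for red cells and their precursors were scarce, also where globin was high. Klf1, a factor that drives globin genes in precursors, had at most 13 counts in any library, and 1 in each of those labelled B-1a WT 1 and B-1a WT 2. Embryonic globin genes were also at the floor, with at most 10 counts of Hbb-bh1, 5 of Hbb-y and 1 of Hba-x. Among 22592 genes outside the members, those whose pattern over 21 libraries was most like that of summed globin included Ccna2, Pomgnt2, Lin9, Spc24, Ube2c, Pla2g15, Atp1b1 and Gmnn, with r from 0.724 to 0.778. Over 16 libraries the 10 most alike were Gm56966, Cx3cr1, Kctd12b, Fpr2, Avpi1, Klhl10, Sirpb1c, Ccna2, Folr2 and Anxa3, with r from 0.737 to 0.819. Ccna2 was among the 10 most alike in both orders. Over 21 libraries 2.51% of all genes had r above 0.5, and 3 of the 50 list genes compared.

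Markers of other cells that a peritoneal sort could hold were followed beside globin. Ppbp, the platelet basic protein gene, had 12 counts in the library labelled B-1a WT 1, 4 in B-1a WT 2, 2 in B-2 TET2-KO 4 and 0 in the rest. The 10 platelet genes summed to 185 to 655 CPM in WT B-1a and 175 to 370 CPM in TET2-KO B-1a libraries, nearly all from Pf4, which macrophages also express, and 4 of the 10 exceeded 3 counts in any WT B-1a library. The 10 neutrophil genes summed to 6.55 to 20.2 CPM and 2.90 to 18.0 CPM in these groups, with at most 36 counts of S100a8 in any library and 19 of S100a9. The 10 genes of peritoneal macrophages were all detected and summed to 1265 to 3211 CPM and 714 to 4084 CPM, and Adgre1 and Timd4 were present in every library. The 8 T cell genes summed to 17.5 to 111 CPM in WT and 35.4 to 76.6 CPM in TET2-KO B-1a libraries, with at most 95 counts of Cd3e and 183 of Cd3d in any library, and the 7 mast cell genes, led by Cpa3 and Mcpt4, to 301 to 1230 CPM and 790 to 1247 CPM. The 6 proliferation genes summed to 27.0 to 56.5 CPM and 14.6 to 44.4 CPM, with the highest value in the library labelled B-1a WT 1 and at most 124 counts of Mki67 and 356 of Top2a in any library. The ranges of the genotypes overlapped in each of these lists in B-1a and in B-2 cells, and in B-1b cells in all but the platelet and T cell lists. Their part in the globin difference was not tested.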

How the data were processed

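RNA of sorted peritoneal B cells was measured in 21 libraries, grouped by their labels. Before deposit the authors used fastp for trimming and STAR for alignment (GRCm39), and the deposited values are raw counts per gene from featureCounts 1.6.1 (GENCODE vM32, unstranded), which left out multi-mapping fragments and those shared by genes. The labels and the study's methods describe the library preparation differently. Symbols from GENCODE vM39 matched 56310 of 56953 genes. No 2 libraries held identical counts.

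Fits used R 4.3.3 with limma 3.58.1 and edgeR 4.0.16, in its quasi-likelihood form with the robust option, on genes kept by filterByExpr by group and scaled by TMM. P-values were adjusted by Benjamini-Hochberg, called at 0.05, and the code was first tested on simulated data. KO was compared with WT within each subset, and the 3 subsets within KO in 1 fit. Alternatives were DESeq2 1.42.0 on all genes, 2 other filters, 3 other normalizations, a replicate block, and libraries left out. Shares carry 95% Wilson intervals. A pseudocount of 1 CPM was used for correlations.

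Named were the members, genes of fixed lists called in a tested comparison (at most 5 each) and the first 2 genes of each marker list, the 10 genes most like summed globin, Tet2 and sort markers. Klf1, the embryonic globin genes and Pf4 were described after their values were seen. Some genes that the rule names are not reported here. Members and lists were chosen with earlier results of these data known.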

Additional observations from a re-analysis of the deposited data

Results flagged for a closer look

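In 27 sets of 4 libraries of 1 group, 7 held a library far from its nearest neighbor. That distance, as a part of the range, exceeded the bound of Dixon's test. The bound served only as a flag, because the members were selected on these levels. The rate of about 1 in 20 expected by chance holds for independent, normally distributed values, not for CPM with many counts of 0. Of the 7 flags, 6 were TET2-KO 1 of B-1a cells, and they are not independent, since the globin genes vary together. That library held 10.2 CPM of Hbb-bs (next highest 1.21), 1.64 CPM of Hbb-bt (0.0569), 14.9 CPM of Hba-a1 (1.21), 2.90 CPM of Hba-a2 (0.569) and 29.6 CPM of summed globin (2.59). Its Slc4a1 level of 0.126 CPM rested on 2 counts, beside 0 in the other 3 libraries. The last was Slc4a1 in TET2-KO 4 of B-2 cells, at 0.470 CPM from 7 counts, beside 0 in the others. Where all other libraries of a group hold 0, any count exceeds the bound, so the Slc4a1 flags add nothing to the counts.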

How the results depend on the processing

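Of 398 member fold changes under alternatives 18 reversed and 39 moved by more than 1 SE, 9 of them between B-1b genotypes and 9 between B-1a genotypes. For the latter, the comparison that selected the members, DESeq2 called 4 members (and 184 of 19418 genes) and the replicate block 2 (and 48 of 13923), against 0 members as reported. These calls restate the selection and support nothing, and no member crossed the threshold in another comparison. Genes called between genotypes (7 in B-1a, 0 in B-1b, 0 in B-2) numbered 184, 49 and 147 with DESeq2, 318, 131 and 167 without a filter, 48, 0 and 0 with the block, and 0 in each without WT 1 and WT 2. Genes called between TET2-KO subsets (38 for B-1b against B-1a, 1080 for B-2 against B-1a, 399 for B-2 against B-1b) numbered 141, 3399 and 2728 with DESeq2, 123, 1699 and 870 without a filter, and 103, 1638 and 667 with the block. For B-2 against B-1a 476 rose and 604 fell in edgeR (median log2 fold change of all genes 0.05), against 2565 and 834 in DESeq2 (median 0.48), and for B-2 against B-1b 117 and 282 (0.10), against 2208 and 520 (0.54), with 0 members called by either. Correlations of same-numbered libraries were -0.142 to 0.046 for B-1a genotypes, -0.123 to 0.162 for B-1b and 0.166 to 0.361 for B-2 (2 pairs), and between TET2-KO subsets 0.073 to 0.118 for B-1b against B-1a, -0.109 to 0.217 for B-2 against B-1a and -0.034 to 0.175 for B-2 against B-1b. No comparison with 3 or more pairs had every correlation over 0.1, so the numbers were not taken as pairs. Each library correlated best with its own number in B-1b against B-1a and in the B-2 genotypes, a hint from the data and not the design. Under the block B-1b against B-1a was -2.80 for Hbb-bs, -1.76 for Hba-a1, -2.19 for Hba-a2 and 0.25 for Hbb-bt, and B-2 against B-1a was -0.16 for Hbb-bs and -0.19 for Hba-a2, with no member called. With 1 library left out, genes called ranged from 0 to 6 in B-1a, 0 to 0 in B-1b, 0 to 576 in B-2 (576 without WT 4), and 15 to 57, 608 to 2015 and 177 to 768 between the subsets. In B-2 cells Hbb-bt then ranged from -2.65 (without WT 1) to 2.89 (without WT 4), Hbb-bs from -1.98 to 2.51, Hba-a1 from -2.19 to 2.30 and Hba-a2 from -2.08 to 0.96. Without WT 4 the only WT library was the one labelled WT 1, whose sort markers went against its label. Leaving out 1 library, B-1b against B-1a ranged from -2.16 to 4.30 for Hbb-bt, -8.78 to 1.24 for Hbb-bs, -4.61 to 1.90 for Hba-a1 and -4.69 to 1.25 for Hba-a2, the lowest without B-1b TET2-KO 1 and the highest without B-1a TET2-KO 1, and Hba-a1 in B-2 against B-1a from -0.0011 to 3.21. In B-1b genotypes the globin genes then ranged from -11.66 to -1.47 and Alas2 from -7.43 to -3.23, in B-1a from -10.76 to -5.42 and from -5.77 to -3.88, and in B-2 against B-1b globin ranged from 0.23 to 9.54 (Hbb-bs without B-1b TET2-KO 1). The median r of globins and Alas2 was 0.920 with a pseudocount of 0.1 CPM. The causes were not tested. Depth limits Slc4a1 everywhere and every member below about 3 counts.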
